A study of Mus musculus with 6 samples.

Results

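The genes described here encode the tight junction and the protein complexes that set the apical pole of an epithelial cell. They were listed by name, and each was read on the arrays through probe sets annotated to that gene alone. Where more than 1 such probe set exists for a gene, the brightest on average across the 6 arrays stands for it. All 39 listed genes were measured, of 18193 genes on the arrays, and together they had 90 probe sets. No expression value was used to choose them, although the list was drawn up with earlier results of these data known.

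Tight junctions seal the space between neighbouring epithelial cells. Claudins and the MARVEL proteins span the membrane and form the seal, ZO and cingulin proteins tie them to actin inside the cell, and immunoglobulin receptors such as JAM-A lie beside them. The apical surface is specified by the Crumbs complex and by the PAR complex of PAR3, PAR6 and atypical protein kinase C, while the Scribble, Dlg and Lgl proteins hold the basolateral side. In airway and alveolar epithelium these proteins keep the air space apart from the tissue, and their loss is a feature of epithelial to mesenchymal transition.

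The cells were 393P, a mass population of mouse lung tumour cells from primary tumours of p53R172H∆g/+ K-rasLA1/+ mice, grown in RPMI 1640 with 10% fetal bovine serum. The tested cells carried a vector with an shRNA against MKK4, a kinase upstream of JNK and p38 whose gene is Map2k4, and the comparison cells carried a scrambled control vector. Both groups therefore share the tumour alleles. Each group had 3 cultures and 1 array per culture, with a single shRNA construct, so the p-values reflect how much cultures of 1 population per group vary among themselves. The labels differ on how the vectors entered the cells, by retroviral infection or by lipid transfection.

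Map2k4 itself, the check of the labels, gave intensities of 240, 295 and 287 with MKK4 shRNA and 700, 638 and 597 with the control vector. The groups were far apart, with a log2 change of -1.21 (SE 0.079) and limma put the adjusted p at 0.000126. Array medians were 92 to 95.76 intensity units, and arrays correlated at r = 0.991 to 0.996 across genes. The highest bacterial control probe set reached 26.4 to 39.5 units per array, and none of the 39 genes lay at or under it on any array. Of 10 epithelial markers, 1 was higher and 5 were lower with MKK4 shRNA, and their summed intensity was 52702 to 54126 with MKK4 shRNA and 53854 to 54174 with the control vector. Of 8 lung lineage markers 1 was lower, summing to 1145 to 1229 with MKK4 shRNA and 1250 to 1281 with the control vector, and Nkx2-1, Scgb1a1 and Napsa were within background on all arrays. The part of these epithelial changes in the results below was not tested. None of 10 fibroblast, 8 endothelial and 7 leukocyte markers passed the limma test, and 1 fibroblast marker and none of the others had an unadjusted p under 0.05. Fibroblast markers summed to 745 to 835 with MKK4 shRNA and 788 to 837 with the control vector, with Pdgfrb and Dcn within background on all arrays. Endothelial markers summed to 595 to 795 with MKK4 shRNA and 673 to 844 with the control vector, with Tie1 within background. Leukocyte markers summed to 1064 to 1256 with MKK4 shRNA and 1136 to 1238 with the control vector, with Cd3e, Lyz2 and Itgam within background.

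Of the 39 genes, 12 passed the limma test at an adjusted p of 0.05, and 8 of these were lower with MKK4 shRNA. The lower genes were the apical polarity genes Crb3, Pard6b and Prkci, the MARVEL gene Ocln, the cingulins Cgn and Cgnl1, and the claudins Cldn6 and Cldn7. The 4 higher genes were Cldn23, Cldn2, Cxadr and the basolateral gene Scrib. In percent, 30.8% of the 39 genes passed, against 11.8% of all genes tested. For the lower direction it was 20.5% against 5.39% of all genes, and for the higher direction 10.3% against 6.39%. Bright genes pass more often, and among genes above the median brightness 10 of 30 listed genes passed, 33.3%, against 20.9% of all such genes.

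The changes were small. The median log2 change of the 39 genes was -0.076, beside -0.007 over all genes, and 26 of the 39 lay below 0, where 52.1% of all genes did. Among genes that passed, the median size of the log2 change was 0.32 for the listed genes and 0.28 for all genes. In the values as deposited, the 3 MKK4 shRNA cultures were all above the 3 control vector cultures for 5 of the 39 genes, 12.8%, against 14.6% of all genes. They were all below for 11 genes, 28.2%, against 11.4% of all genes. The groups overlapped for the other 23.

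**Figure D1:**
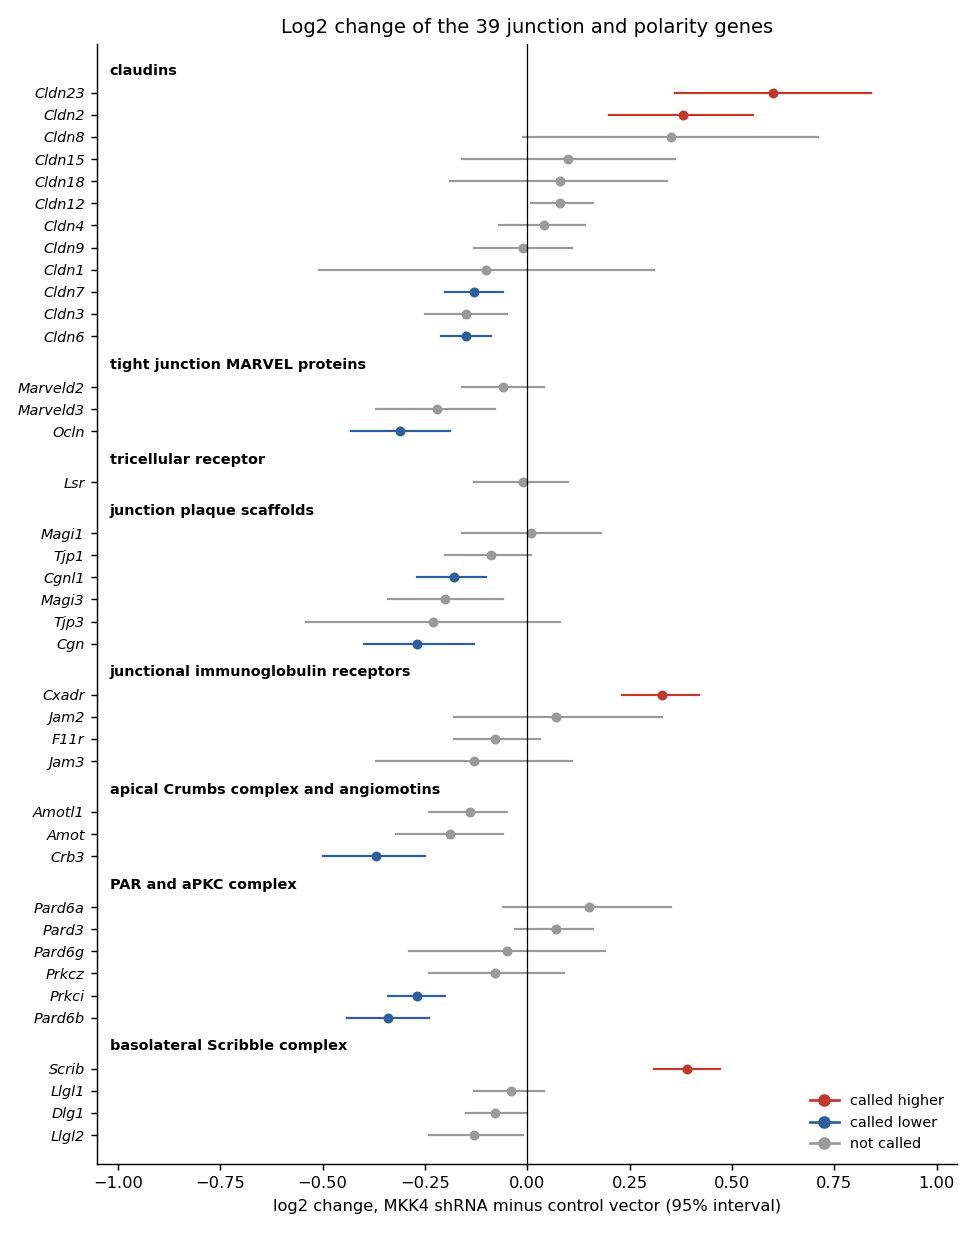
Log2 change of each of the 39 genes, MKK4 shRNA minus control vector, with its 95% interval, grouped by role and ordered by size within a role. The 8 genes called lower lie between -0.37 for Crb3 and -0.13 for Cldn7, and the 4 called higher between 0.33 for Cxadr and 0.60 for Cldn23.

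Claudins were split, with 2 of 12 higher, 2 lower and 8 not called. Cldn23 gave 110, 115 and 118 units with MKK4 shRNA, against 61.4, 75.3 and 71.9 with the control vector. It had the largest change of the 39 genes in either direction, a log2 change of 0.60 (95% interval 0.36 to 0.84, limma adjusted p = 0.00802), and every shRNA culture lay above every control culture. Cldn23 was dimmer than the median gene and had only 1 probe set. Cldn2, which forms a channel for cations and water in leaky epithelia, gave 166, 180 and 173 units with MKK4 shRNA and 128, 132 and 126 with the control vector. That is a log2 change of 0.38 (SE 0.075, limma adjusted p = 0.0159), but its other probe set above background showed 0.02 (adjusted p = 0.966). Cldn2 also missed the threshold when single cultures were left out, at adjusted p = 0.0702 without shRNA culture 2, 0.0558 without shRNA culture 3, 0.0509 without control culture 1 and 0.0607 without control culture 3.

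Both lower claudins were bright and changed little. Cldn6, a claudin of embryonic epithelia, gave 4909, 5013 and 5053 units with MKK4 shRNA, against 5580, 5465 and 5366 with the control vector. The groups did not overlap, and the log2 change was -0.15 (95% interval -0.21 to -0.09, limma adjusted p = 0.00685). Cldn7, found along the lateral membrane of lung and gut epithelium, gave 2855, 2933 and 2887 units with MKK4 shRNA and 3129, 3216 and 3091 with the control vector. Its shRNA cultures were all lower, with a log2 change of -0.13 (limma adjusted p = 0.0272), a fall of 8.84%. That call was lost without shRNA culture 2 (adjusted p = 0.103), shRNA culture 3 (0.0955), control culture 2 (0.0793) or control culture 3 (0.0633).

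The promoter window of Cldn6 is shown because it holds matches to the E-box bound by Snail and Zeb repressors, which are known to act on junction genes. The window runs from 250 bases before to 50 bases after the annotated start in RefSeq (GRCm38.p6, chr17:23679115-23679414, plus strand). Capitals mark CAGGTG, the complement of CACCTG, which begins 93 bases before the start and again at base 41 of the transcript.
Cldn6: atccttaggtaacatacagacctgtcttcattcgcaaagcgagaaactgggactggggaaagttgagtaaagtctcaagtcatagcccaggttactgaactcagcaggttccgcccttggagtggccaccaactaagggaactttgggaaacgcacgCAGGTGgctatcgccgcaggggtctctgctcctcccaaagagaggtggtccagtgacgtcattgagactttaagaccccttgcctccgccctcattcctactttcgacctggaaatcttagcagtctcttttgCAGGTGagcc

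The 8 claudins that were not called included Cldn4, the one with the highest mean intensity. It gave 4069, 3958 and 4027 units with MKK4 shRNA and 3721, 4096 and 3816 with the control vector. These groups overlapped, with a log2 change of 0.04 (95% interval -0.07 to 0.14). Cldn3 stood just outside the threshold at a log2 change of -0.15 (limma adjusted p = 0.0579), with 2819, 3096 and 2856 units with MKK4 shRNA and 3111, 3223 and 3369 with the control vector. Its 3 other probe sets, fitted on their own, were lower by log2 changes of -0.20 to -0.25, and all 3 passed. Without control culture 1, Cldn3 itself passed at a log2 change of -0.19 (adjusted p = 0.0396). Cldn12 was higher in every shRNA culture but by a log2 change of only 0.08 (limma adjusted p = 0.174). Cldn8, Cldn15, Cldn18, Cldn9 and Cldn1 had log2 changes of 0.35, 0.10, 0.08, -0.01 and -0.10 and did not pass, and the interval of Cldn8 was the widest above 0, reaching 0.71.

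**Figure D2:**
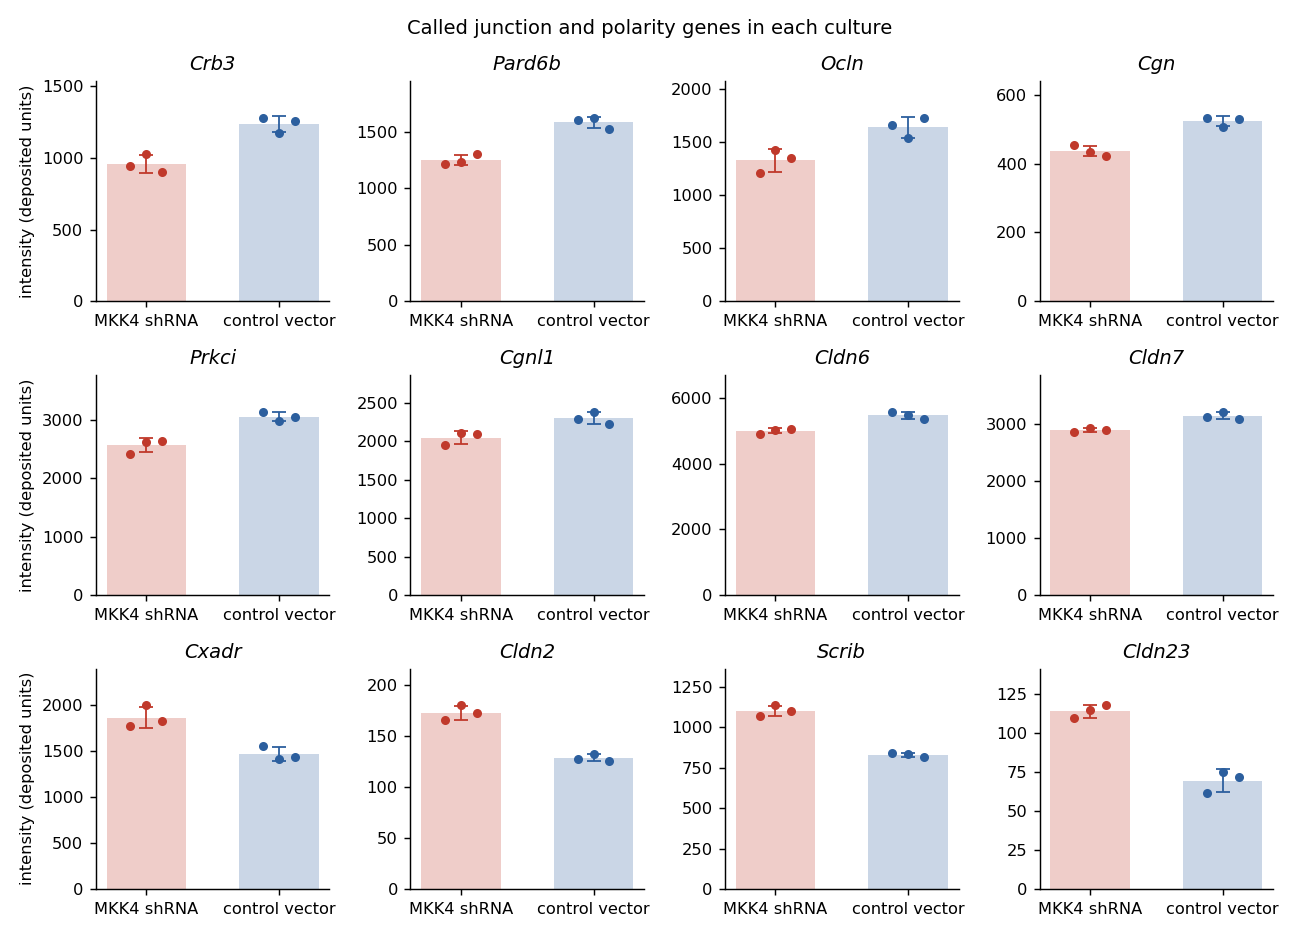
Deposited intensity of the 12 called genes in each culture, with MKK4 shRNA left of control vector in each panel. Points are cultures, bars are group means and whiskers are SD (n = 3). In all 12 panels the 3 shRNA points lie on one side of the 3 control points.

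Among the MARVEL proteins, Ocln was lower and the other two were not called. Ocln encodes occludin, a regulator of the leak pathway for larger solutes. It gave 1215, 1431 and 1352 units with MKK4 shRNA and 1664, 1539 and 1733 with the control vector. The groups did not overlap, the log2 change was -0.31 (95% interval -0.43 to -0.19), and the limma adjusted p was 0.00808. A second, dimmer probe set for Ocln gave 167, 193 and 166 units with MKK4 shRNA and 247, 267 and 256 with the control vector. It passed on its own with a log2 change of -0.53. Marveld3, which links the junction to MAP kinase signalling, gave 468, 582 and 491 units with MKK4 shRNA, against 593, 585 and 599 with the control vector. Its shRNA cultures were all below its controls, culture 2 by little, and the log2 change of -0.22 did not pass (limma adjusted p = 0.0593). Without shRNA culture 2 it passed, at a log2 change of -0.29 and an adjusted p of 0.0272. Marveld2, tricellulin, which seals the points where 3 cells meet, gave 1001, 1065 and 1077 units with MKK4 shRNA and 1162, 1043 and 1057 with the control vector. These overlapped (log2 change -0.06, limma adjusted p = 0.444). Lsr, the receptor that brings tricellulin to those points, gave 670, 693 and 674 units with MKK4 shRNA and 643, 699 and 679 with the control vector, with a log2 change of -0.01 (95% interval -0.13 to 0.10).

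Of the 6 plaque scaffolds, the cingulin pair was lower and 4 genes were not called. Cgn, cingulin, which ties the junction to myosin, gave 453, 432 and 423 units with MKK4 shRNA, against 533, 507 and 529 with the control vector. Cgnl1, paracingulin, its relative at both tight and adherens junctions, gave 1945, 2107 and 2087 units with MKK4 shRNA and 2291, 2384 and 2228 with the control vector. Neither pair of groups overlapped. The log2 changes were -0.27 (limma adjusted p = 0.0249) for Cgn and -0.18 (limma adjusted p = 0.0168) for Cgnl1. Both calls were lost in fits with 1 culture left out, in which fewer of all genes passed too. Cgn missed at adjusted p of 0.1 without shRNA culture 2, 0.0915 without shRNA culture 3, and 0.0772, 0.0629 and 0.0922 without control culture 1, 2 or 3. Cgnl1 missed at 0.0574, 0.0655 and 0.0586 without shRNA culture 1, 2 or 3. The Cgn window is shown because it was the one window among the listed genes with a match to the Grainyhead-like motif AACCNGTT. Grainyhead-like factors are activators of epithelial junction genes. The window lies at chr3:94786433-94786732 on the minus strand (GRCm38.p6, RefSeq). Capitals mark the match, written as the complement of the motif, which begins 29 bases before the start and overlaps no E-box.
Cgn: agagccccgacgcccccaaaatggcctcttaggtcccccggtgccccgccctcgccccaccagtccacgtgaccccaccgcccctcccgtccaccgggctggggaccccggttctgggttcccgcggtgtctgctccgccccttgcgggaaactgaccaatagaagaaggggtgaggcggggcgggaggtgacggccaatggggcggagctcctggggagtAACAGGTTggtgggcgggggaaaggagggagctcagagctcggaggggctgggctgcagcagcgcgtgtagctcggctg

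Tjp1, which encodes ZO-1, the scaffold that nucleates claudin strands, gave 3942, 4083 and 3824 units with MKK4 shRNA and 4365, 3915 and 4175 with the control vector. The groups overlapped, and the log2 change was -0.09 (95% interval -0.20 to 0.01, limma adjusted p = 0.261). Magi3 had a log2 change of -0.20 (limma adjusted p = 0.0822) and Magi1 of 0.01, both genes of scaffolds that hold several PDZ domains. Tjp3, which encodes ZO-3, had a log2 change of -0.23 with an interval down to -0.54, the widest below 0 among genes not called, at 60.1 ± 8.39 units with MKK4 shRNA and 73.1 ± 9.47 with the control vector (SD, n = 3 each).

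Of the 4 junctional immunoglobulin receptors, Cxadr was higher. Cxadr encodes CAR, a cell adhesion protein that is also the receptor of coxsackieviruses and many adenoviruses. It gave 1774, 1998 and 1823 units with MKK4 shRNA, against 1558, 1417 and 1439 with the control vector. All shRNA cultures were above all controls, with a log2 change of 0.33 (95% interval 0.23 to 0.42, limma adjusted p = 0.0022). The 4 other Cxadr probe sets were higher by log2 changes of 0.14 to 0.43, and 1 of them passed on its own. F11r, which encodes JAM-A, a receptor that recruits PAR3 to new junctions, gave 1366, 1443 and 1547 units with MKK4 shRNA and 1598, 1525 and 1437 with the control vector. The groups overlapped, with a log2 change of -0.08 (limma adjusted p = 0.371). Jam2 and Jam3, which encode its relatives JAM-B and JAM-C, had log2 changes of 0.07 and -0.13 and did not pass. The 3 other Jam2 probe sets above background gave -0.17, -0.11 and 0.00, and none of them passed.

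In the apical Crumbs group, Crb3 was lower. Crb3 encodes the form of Crumbs found in most mammalian epithelia, which anchors PALS1 and PATJ at the apical membrane. It gave 945, 1029 and 903 units with MKK4 shRNA and 1280, 1172 and 1256 with the control vector. The groups did not overlap, and Crb3 was lower by 22.8%, the largest fall among the kept probe sets of the 39 genes. The log2 change was -0.37 (SE 0.054, 95% interval -0.50 to -0.25) at a limma adjusted p of 0.00401. Its 2 other probe sets were lower by log2 changes of -0.23 and -0.33, and both passed on their own. The kept probe set and the one at -0.33 can match several transcripts. The one at -0.23 fell by 15.0%. The Crb3 window is shown because it held 4 E-box matches, as many as the window of Lsr, which was not called. The Crb3 window lies at chr17:57061951-57062250 on the plus strand (GRCm38.p6, RefSeq), the first of 2 windows listed for the gene. Capitals mark CACCTG, which begins 118 bases before the start, and CAGGTG, which begins 63 and 7 bases before the start and at base 26 of the transcript.
Crb3: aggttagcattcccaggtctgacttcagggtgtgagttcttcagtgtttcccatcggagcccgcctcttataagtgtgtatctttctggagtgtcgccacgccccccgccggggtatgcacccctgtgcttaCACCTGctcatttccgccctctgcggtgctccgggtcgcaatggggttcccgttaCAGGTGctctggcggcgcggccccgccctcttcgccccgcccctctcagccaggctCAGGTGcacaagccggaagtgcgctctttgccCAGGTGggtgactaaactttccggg

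The angiomotins, which bind PATJ and the Hippo effector YAP at the junction, were lower in every shRNA culture for Amot but did not pass. Amot gave 689, 846 and 798 units with MKK4 shRNA, against 872, 859 and 900 with the control vector, a log2 change of -0.19 (limma adjusted p = 0.0671). Amotl1 gave 2434, 2686 and 2439 units with MKK4 shRNA and 2871, 2727 and 2630 with the control vector. Here shRNA culture 2 lay above control culture 3, and the log2 change was -0.14 (limma adjusted p = 0.06). The 2 other Amotl1 probe sets had every shRNA culture below every control, at -0.14 and -0.40. They did not pass (limma adjusted p = 0.0843 and 0.248 among all probe sets). The 2 other Amot probe sets gave -0.15 and 0.08, with overlapping groups.

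In the PAR complex, 1 PAR6 gene of 3 and 1 atypical PKC gene of 2 were lower. Pard6b encodes PAR6B, the adaptor that holds atypical PKC to CDC42 and Crumbs. It gave 1221, 1236 and 1306 units with MKK4 shRNA and 1602, 1626 and 1528 with the control vector. The groups were well apart, with a log2 change of -0.34 (95% interval -0.44 to -0.24) and a limma adjusted p of 0.00197, and its other probe set passed at -0.31. Prkci encodes the atypical kinase PKC iota, which phosphorylates proteins of the basolateral side to keep them off the apical membrane. It gave 2426, 2626 and 2648 units with MKK4 shRNA, against 3146, 2983 and 3048 with the control vector. Every shRNA culture was lower, with a log2 change of -0.27 (95% interval -0.34 to -0.20) and a limma adjusted p of 0.00128. The kept Prkci probe set, like both Pard6b probe sets, is one that can match several transcripts. The other Prkci probe set gave -0.28 and did not pass (adjusted p = 0.228 among all probe sets).

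The windows of these 2 genes are shown together because one held the E-box and the other did not. Pard6b lies at chr2:168080754-168081053 and Prkci at chr3:30995521-30995820, both on the plus strand (GRCm38.p6, RefSeq). In Pard6b, capitals mark CAGGTG, which begins 141 and 86 bases before the start. The Prkci window held none of the motifs searched and has no capitals.
Pard6b: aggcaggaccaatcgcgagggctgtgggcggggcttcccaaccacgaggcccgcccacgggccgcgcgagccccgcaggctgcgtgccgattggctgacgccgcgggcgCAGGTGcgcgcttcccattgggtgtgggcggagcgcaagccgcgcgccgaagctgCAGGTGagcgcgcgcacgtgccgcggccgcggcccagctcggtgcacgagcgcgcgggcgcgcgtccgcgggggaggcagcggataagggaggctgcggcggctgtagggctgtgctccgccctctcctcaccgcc
Prkci: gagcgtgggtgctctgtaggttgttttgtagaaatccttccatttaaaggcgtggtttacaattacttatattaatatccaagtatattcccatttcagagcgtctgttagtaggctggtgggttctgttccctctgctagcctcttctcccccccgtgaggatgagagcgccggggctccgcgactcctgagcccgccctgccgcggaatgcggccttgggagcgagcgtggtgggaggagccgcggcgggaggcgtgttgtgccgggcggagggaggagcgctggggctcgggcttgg

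Pard3, which encodes the scaffold PAR3, gave 773, 834 and 804 units with MKK4 shRNA and 767, 731 and 777 with the control vector. Its groups overlapped by a narrow margin, with a log2 change of 0.07 (95% interval -0.03 to 0.16). The 2 other Pard3 probe sets above background gave -0.03 and -0.07, and neither passed. Pard6a and Pard6g, the other PAR6 genes, had log2 changes of 0.15 and -0.05. Prkcz, which encodes PKC zeta, had a log2 change of -0.08 (95% interval -0.24 to 0.09). Its 2 other probe sets above background gave -0.10 and -0.44, the latter with every shRNA culture below every control. Neither passed (limma adjusted p = 0.68 and 0.142 among all probe sets). Whether the change of Pard6b or Prkci differed from that of its relatives was not tested.

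On the basolateral side, Scrib was higher. Scrib encodes Scribble, a scaffold that restrains growth and holds the lateral domain. It gave 1073, 1136 and 1100 units with MKK4 shRNA, against 842, 833 and 816 with the control vector. The groups were far apart for their spread, with a log2 change of 0.39 (95% interval 0.31 to 0.47), and at 0.000489 its limma adjusted p was the lowest of the 39 genes. Scrib had only 1 probe set, which can match several transcripts. The other 3 genes of the complex did not pass. Dlg1 gave 3783, 3849 and 3968 units with MKK4 shRNA and 4118, 4098 and 3893 with the control vector, overlapping groups with a log2 change of -0.08 (limma adjusted p = 0.193). The Lgl genes Llgl1 and Llgl2, whose products are targets of atypical PKC, had log2 changes of -0.04 and -0.13.

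**Figure D3:**
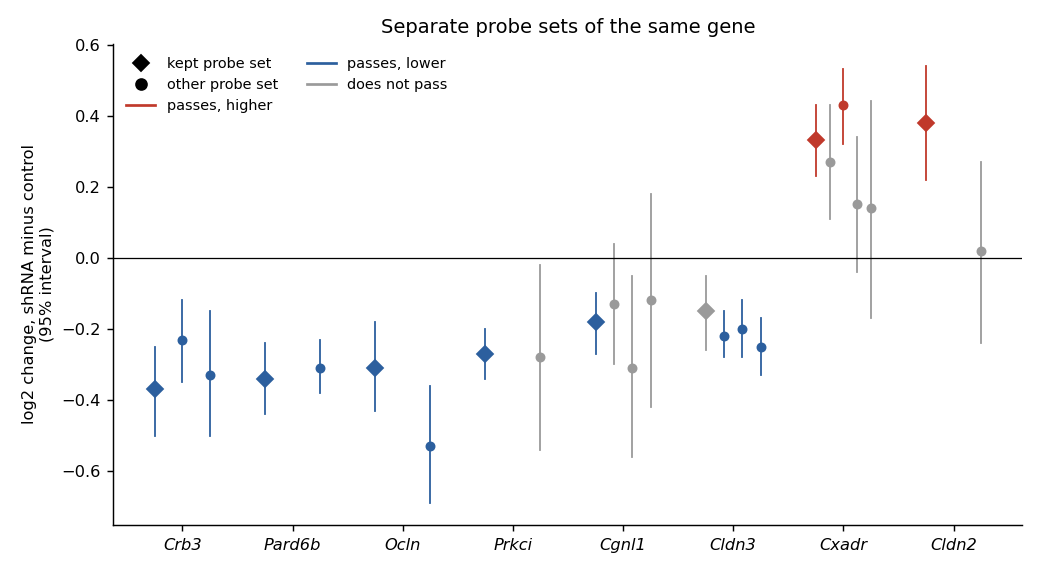
Log2 change of separate probe sets, MKK4 shRNA minus control vector, with 95% intervals, for the 7 called genes with another probe set above background and for Cldn3. Diamonds are the kept probe sets and circles the others. All 13 other probe sets of called genes lie on the same side of 0 as the kept one.

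Separate probe sets gave a further look at the called genes. Of the 12, Cldn6, Cldn7, Cldn23 and Scrib had 1 probe set each and could not be checked in this way. The other 8 had several probe sets, and 7 of these had at least 1 other above background. These genes had 13 such probe sets, all with the sign of the kept one, and 5 passed on their own, in Crb3, Ocln, Pard6b and Cxadr. Probe sets of a gene were read on the same arrays from the same RNA and are not further replicates. The weakest matches were Cldn2, above, and Cgnl1, whose other probe sets ranged from -0.31 to -0.12 without passing.

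The 27 genes that were not called had log2 changes from -0.23 for Tjp3 to 0.35 for Cldn8. For 16 of them the 95% interval stayed within 0.3 of 0 on either side. Tjp1, F11r, Pard3, Lsr, Cldn4 and Dlg1 were among these. That bound is wider than the called changes of Cldn7, Cldn6, Cgnl1, Cgn and Prkci. It does not mark a gene as unchanged, and some of the 16 intervals left out 0, such as those of Cldn3, Cldn12, Amotl1 and Llgl2. The 5 closest to the threshold, with adjusted p under 0.1, were Cldn3, Marveld3, Magi3, Amot and Amotl1, all with negative log2 changes. The smallest called change was 0.13 in size, and many uncalled intervals reach past it, such as Tjp1 to -0.20 and Magi3 to -0.34. For the dim genes Cldn8 and Tjp3 the intervals reach 0.71 and -0.54, past any change called in that direction. So does that of Cldn1, to -0.51, at 108 ± 31 units with MKK4 shRNA (SD, n = 3).

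A wider list of 66 measured junction and polarity genes outside the 39 was read in the same way. Of these 66 genes 7 passed, 10.6%, close to the 11.8% of all genes, with 4 higher and 3 lower, and their median log2 change was 0.008. Above the median brightness 6 of 48 passed, 12.5%, which was below the 20.9% of all such genes. The largest change was in Rab25, a GTPase of apical recycling endosomes in epithelia, with 1580, 1843 and 1692 units with MKK4 shRNA and 2634, 2638 and 2721 with the control vector. Rab25 was lower by 36.3% with no overlap, a log2 change of -0.65 (limma adjusted p = 8.41e-05). Patj, the Crumbs complex scaffold, gave 725, 741 and 667 units with MKK4 shRNA, against 891, 854 and 912 with the control vector. Its groups did not overlap, at a log2 change of -0.33 (limma adjusted p = 0.00983, and 0.0503 without shRNA culture 2). The other 7 genes listed with the Crumbs complex, among them Mpp5, which encodes PALS1, did not pass the limma test, though Mpp7 and Epb41l5 had unadjusted p of 0.0407 and 0.00619.

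The wider list held 5 further called genes. Arhgef7, a Rac and Cdc42 exchange factor that binds Scribble, had a log2 change of -0.20 (limma adjusted p = 0.0158, against 0.0594 without shRNA culture 3 and 0.0638 without control culture 2). With all its probe sets averaged the log2 change of Arhgef7 was -0.06 (adjusted p = 0.705). Amotl2, the third angiomotin, gave 2799, 2807 and 2718 units with MKK4 shRNA and 2408, 2296 and 2371 with the control vector. It was higher in every shRNA culture, with a log2 change of 0.22 (limma adjusted p = 0.00587), while Amot and Amotl1 had negative changes. Wwc1, which encodes the Hippo regulator KIBRA, a partner of atypical PKC, gave 1424, 1518 and 1494 units with MKK4 shRNA and 1198, 1266 and 1243 with the control vector, again without overlap, a log2 change of 0.24 (limma adjusted p = 0.00641). Tiam1, a Rac activator bound by PAR3, was higher by 0.35 (limma adjusted p = 0.0498), and Dlg5 by 0.17 (limma adjusted p = 0.045). Tiam1 passed in only 2 of 14 alternatives, and the mean of all its probe sets gave a log2 change of 0.00 (adjusted p = 0.991). Leaving out any culture but control culture 2 took the Tiam1 call away, with adjusted p up to 0.159. Leaving out any culture but shRNA culture 3 took away that of Dlg5, with adjusted p up to 0.158. None of the 10 claudin and claudin-like genes in the wider list passed the limma test or had an unadjusted p under 0.05, and Cldn10, Cldn11 and Cldn13 were within background on all arrays. Magi2 and Crb2 were not analysed here.

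**Figure D4:**
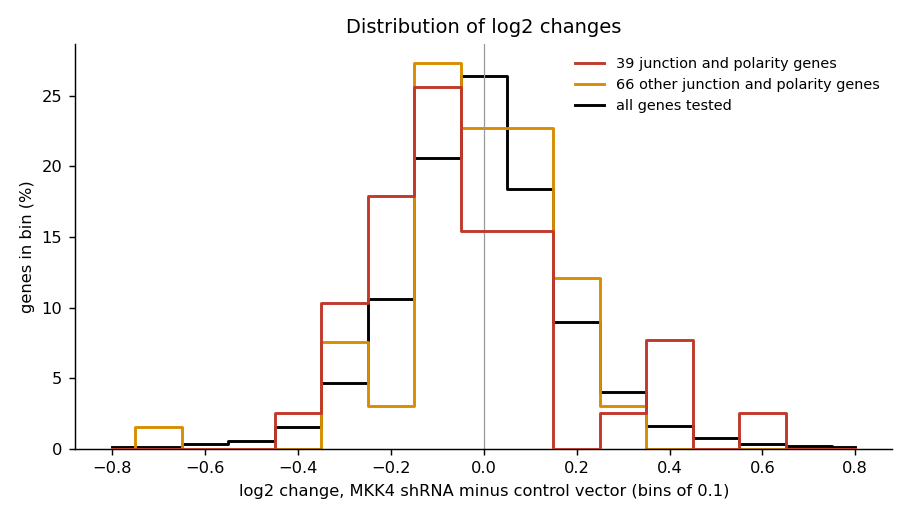
Share of genes by log2 change, MKK4 shRNA minus control vector, in bins of 0.1, for the 39 listed genes, the 66 other junction and polarity genes and all 18193 genes. The medians are -0.076, 0.008 and -0.007, and the listed genes hold larger shares than all genes in the bins between -0.45 and -0.05, from 0.35 to 0.45 (7.69% against 1.62%) and from 0.55 to 0.65 (2.56% against 0.368%).

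Promoter windows were available in the RefSeq table for 29 of the 39 genes, including all 8 lower genes but, of the higher genes, only Cldn2. The E-box, CACCTG or its complement CAGGTG on either strand, was in the first listed window of 11 of the 29 genes, 37.9%. Of 27025 genes in the table, 20% held it. Among the lower genes it was in 4 of 8, Cldn6, Ocln, Crb3 and Pard6b, and among the genes not called in 7 of 20, 35%. The E-box was thus also common in listed genes that were not called. Among those, the first window held 4 matches in Lsr and 2 each in Cldn4 and Prkcz. Among the lower genes it held 4 in Crb3 and 2 each in Cldn6 and Pard6b. Counting every listed window of a gene, 16 of 29 genes held it, 55.2%, against 22.6% of all genes in the table. A gene with more windows has more chances of a match, and the number of windows per gene was not matched between these shares. The Grainyhead-like motif AACCNGTT was in 1 of 29 genes, 3.45%, against 2.01% of all genes. The AP-1 motif TGANTCA, bound by Jun and Fos proteins, was in 4 of 29 genes, 13.8%, against 7.93% of all genes, and in none of the 8 lower genes. It was in Cldn4, Cldn15, Lsr and F11r. These matches describe letters in short windows, and binding was not measured.

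**Figure D5:**
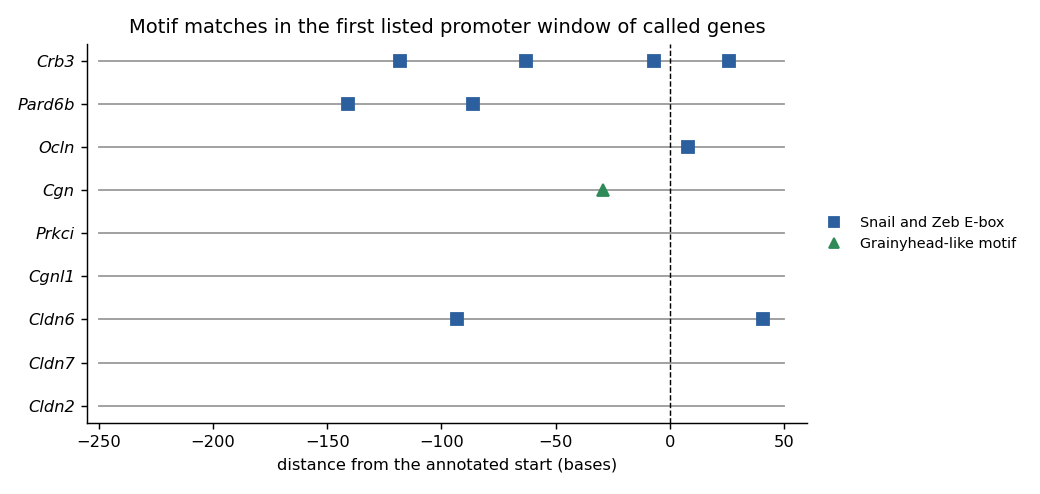
Motif matches in the first listed promoter window of the 9 called genes that have one, by distance in bases from the annotated start. Squares are E-boxes and the triangle is the Grainyhead-like match. Crb3 has 4 E-boxes, Pard6b and Cldn6 have 2 each and Ocln has 1.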

How the data were processed

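Biotin-labelled RNA of 6 cultures was measured, per the labels, on 1-colour Affymetrix arrays. The authors deposited linear intensities, 1 per probe set. Sources used here do not give their summarisation, background correction and normalization. A pseudocount of 16 was added, log2 was taken and values were quantile-normalized between arrays. Changes on this log2 scale are too small for dim genes, and percent changes are computed from them. Single-culture values, means and SDs are of deposited intensities. The platform annotation names 1 gene for 34945 of 45101 probe sets. Groups were compared with limma 3.58.1 in R 4.3.3 (lmFit, then eBayes, trended prior variance). Benjamini-Hochberg adjustment ran over 18193 genes at a threshold of 0.05, or over all probe sets where these were fitted singly. The fit was tested on simulated data. The number of arrays limits precision.

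All 39 genes are accounted for. Values per culture are given for Map2k4, for called genes and for the uncalled gene with the highest mean in each role. Cldn3, Marveld3 and Amot, also given per culture, were chosen after their values were seen. The genes, lists and rules were chosen with earlier results of these data known. Same-numbered cultures did not deviate together (r = -0.0342, -0.00765 and -0.114), so numbers were not used as pairs. Alternatives were 2 other normalizations, other pseudocounts, a filter on dim genes, other choices of probe set, no variance trend, the replicate number as a block, and leaving out each array.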

Additional observations from a re-analysis of the deposited data

How the results depend on the processing

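Of the 12 called genes, 6 passed in every alternative that held them, namely Cldn23, Ocln, Cxadr, Crb3, Pard6b and Scrib. Scrib and Pard6b were not held with probe sets open to several transcripts left out, nor was Cldn23 without the dimmer genes. Prkci missed in 1 (adjusted p = 0.181, with probe sets open to several transcripts left out) and Cldn6 in 2 of 15. Cldn2 passed in 8 of 14, and Cldn7, Cgn and Cgnl1 in 7 of 15 each. Causes were not tested. As reported, 4 listed genes were higher and 8 lower, and in the wider list 4 were higher and 3 lower. Values as deposited gave a median log2 change of -0.063 and 2 higher genes in the wider list. With array medians centred the median was -0.067, with 5 listed genes lower and 2 of the wider list higher. Fewer of all genes passed too, 8.48% with values as deposited and 7.9% with medians centred, against 11.8% as reported. A pseudocount of 64 gave a median of -0.067. Without the dimmer genes, those at or under the median gene, 30 listed genes stayed in, 2 higher and 13 lower (median -0.086), and 6 of the wider list were lower. There 28.9% of genes passed, and fewer genes were tested. The mean of all probe sets gave a median of -0.085, and in the wider list 2 higher and 5 lower, with 8.46% of all genes passing. Leaving out probe sets open to several transcripts, 1 gene of the wider list was higher, and Arhgef7 turned to a log2 change of 0.08 (adjusted p = 0.832). In that setting 9.89% of all genes passed. Without a variance trend, 4 listed genes were lower and 1 of the wider list was higher, while 6.21% of all genes passed. With a replicate block, 5 listed genes were lower and 2 of the wider list were higher, and 1211 genes passed in all, against 2143 without it. The replicate numbers did not pair the cultures, and shRNA culture 1 deviated most like control culture 3 (r = 0.133).

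Leaving out single cultures gave medians of -0.078 to -0.064, 3 to 4 listed genes higher and 5 to 8 lower, with 5 lower without shRNA culture 3. In the wider list it gave 2 to 3 higher, with 2 without shRNA culture 1, shRNA culture 2, control culture 1 or control culture 3, and 2 to 4 lower. Over all genes, 6.38% to 9.18% passed with a culture left out, and 6.89% without shRNA culture 3. With 3 arrays a group, changes as large as the smaller called ones could be missed in many of the uncalled genes. Changes as large as the largest called ones could be missed in Cldn1, or in Cldn8 and Tjp3, which lie nearer background.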

Other observations

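Among regulators known to act on junction genes, Snai2 differed most. Snai2, which encodes the repressor Slug, gave 497, 574 and 620 units with MKK4 shRNA and 257, 247 and 222 with the control vector, a log2 change of 1.15 (limma adjusted p = 0.000172). It was the only one of 8 listed repressors to pass, and Twist1 was within background on all arrays. Of 14 listed activators, Klf4 was higher and Grhl2 and Elf3 were lower. Grhl2, a Grainyhead-like factor, gave 672, 701 and 672 units with MKK4 shRNA, against 856, 815 and 823 with the control vector, a log2 change of -0.30 (limma adjusted p = 0.00334). Elf3 had a log2 change of -0.28 (limma adjusted p = 0.0159) and passed in 10 of 15 alternatives, missing without control culture 1, 2 or 3 (adjusted p = 0.0537, 0.0548 and 0.0677). The mean of all Grhl2 probe sets changed by -0.08 and did not pass (adjusted p = 0.697). Whether these factors bear on the junction genes was not tested.

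The 10 epithelial markers were split, with Epcam, Cdh1, Esrp1, Grhl2 and Elf3 lower, Krt19 higher, and Krt7, Krt8, Krt18 and Esrp2 not called. Epcam, an adhesion protein that binds claudin 7, gave 5208, 5615 and 5719 units with MKK4 shRNA and 6807, 6976 and 6854 with the control vector, a log2 change of -0.35 (limma adjusted p = 0.000867). Cdh1, E-cadherin, had a log2 change of -0.14 (limma adjusted p = 0.0182) and passed in 8 of 15 alternatives, missing without shRNA culture 1 (0.0672), shRNA culture 3 (0.0805) or control culture 3 (0.0681). Keratin genes had positive changes. Krt19 gave 4313, 4866 and 4680 units with MKK4 shRNA and 3615, 3963 and 3995 with the control vector, a log2 change of 0.23 (limma adjusted p = 0.0268), and passed in 9 of 15 alternatives. It missed without shRNA culture 2 (0.11), shRNA culture 3 (0.104), or control culture 1, 2 or 3 (0.0581, 0.0563 and 0.0515). Krt7, Krt8 and Krt18 were higher in the deposited values of every shRNA culture than of any control culture, but their log2 changes of 0.04, 0.08 and 0.01 did not pass.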
